A study of Mus musculus with 10 samples.

Results

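Yoked controls were compared with saline self-administering mice by sequencing RNA bound to tagged ribosomes of cholinergic neurons. The comparison used the 3 immunopurified libraries titled as yoked controls and the 3 titled as saline self-administration, 6 of the 10 samples in the series. All were adult mice of 1 transgenic line, Chat-TRAP DW167, where an EGFP tag on Rpl10a, a protein of the large ribosomal subunit, marks ribosomes of cells that use the Chat regulatory sequence, and RNA was taken from the whole striatum after tagged polysomes had been pulled down with antibodies against EGFP. The other samples are 3 libraries from cocaine self-administration and 1 input of total striatal RNA from a saline sample. Saline animals are labelled as having self-administered saline, and yoked animals only as yoked controls: the labels do not say what was delivered to them, for how long, at what age, or whether a library is 1 animal or a pool. Nothing states that libraries of a group came from separate animals, so a p value here measures the spread between libraries, which may be technical.

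In a self-administration experiment, an animal works for its own infusions, while a yoked animal is given deliveries that it does not control. A difference between groups of this kind therefore bears on the manner of delivery and on the substance delivered, and the labels do not separate them here. Cholinergic interneurons are a small share of striatal neurons. They fire tonically, release acetylcholine, pause at salient events, and act on dopamine terminals and on the spiny projection neurons, the GABAergic output cells of the striatum. Their acetylcholine is made by choline acetyltransferase (Chat), loaded into vesicles by the transporter Slc18a3 and renewed by choline uptake through Slc5a7.

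Total gene counts (rounded to 6 digits) came to 25609300, 31426700 and 42100800 for the saline and 54980400, 30369100 and 27474700 for the yoked group, in the order of replicate numbers 1 to 3. Between 16530 and 18917 genes had a count in a library. Both libraries numbered 2 stood apart: their median correlation of log2 levels with the other 5 was 0.937 (saline) and 0.942 (yoked), against 0.966 to 0.972 for the rest, and their 100 most abundant genes took 20% and 19.17% of the counts, against 27.01% to 31.02%. The labels put saline libraries on lane 3 and yoked libraries on lane 4, and an effect of lane cannot be told apart from one of group. Reads that fell in no annotated gene made up 14.13%, 14.76% and 15.23% of assigned and unassigned unique reads in saline libraries 1 to 3 and 15.4%, 17.65% and 21.71% in the yoked libraries, a larger share in the yoked library within each number.

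No transcript passed the test between the groups. In edgeR's quasi-likelihood test with replicate number as a block, 0 of 14427 genes had a Benjamini-Hochberg adjusted p under 0.05 (0%), and the smallest adjusted p was 0.933. At an unadjusted p under 0.05 there were 520 genes (3.6%), of which 280 were higher (1.94%) and 240 lower (1.66%) in yoked libraries. The groups did not overlap for 583 genes with yoked above saline (4.04%) and for 476 with yoked below (3.3%).

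Without the replicate block, edgeR's quasi-likelihood test also called 0 genes, with 304 at an unadjusted p under 0.05, 199 of them higher and 105 lower. Leaving out both libraries numbered 2 gave 1 called gene, AK155692, a transcript known here only by that symbol, with a log2 fold change of 0.94 and an adjusted p of 0.0412 in edgeR's test. When the low-count filter was reapplied to those 4 libraries, 0 genes were called and the smallest adjusted p was 0.0913 in edgeR's test. DESeq2 on all 6 libraries called 2 genes, Tnrc18 (adjusted p = 0.0048) and Dgkk (adjusted p = 0.0418), both higher in yoked libraries, and limma voom called 0 with 782 genes at an unadjusted p under 0.05. Among the 10253 genes with a mean of at least 5 CPM (counts relative to library size), the median half-width of the 95% interval of a log2 fold change was 0.41, a 1.33-fold difference. Of these genes, 44 had a fitted difference of 2-fold or more upward in yoked libraries and 10 downward, none passing the test.

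Transcripts that define cholinergic neurons overlapped in level between the 2 groups. Chat (chromosome 14, 32408203 to 32465909, mm10) stood at 480, 585 and 591 CPM in saline libraries 1 to 3 and at 623, 532 and 553 CPM in yoked libraries 1 to 3. The ranges overlapped, yoked being higher within number 1 and lower within numbers 2 and 3, and the log2 fold change was 0.05 ± 0.11 (SE), with a 95% interval from -0.20 to 0.30. Slc18a3, whose gene lies within the interval of Chat, had 660, 935 and 1069 CPM in the saline and 737, 973 and 1297 CPM in the yoked libraries. Yoked exceeded saline within each number, by 0.16, 0.06 and 0.28 on the log2 scale, while the ranges overlapped (0.17 ± 0.08, unadjusted p = 0.0697 in edgeR's test). Slc5a7 had 1204, 1478 and 1460 CPM against 1207, 1506 and 1204 CPM in yoked libraries, a log2 fold change of -0.08 ± 0.09, the difference lying in number 3. In the same saline and yoked libraries the mean level of the 3 transcripts exceeded the input by 5.78 (Chat), 6.80 (Slc18a3) and 5.28 (Slc5a7) on the log2 scale, so the defining transcripts of the labelled cell type were enriched.

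**Figure D1:**
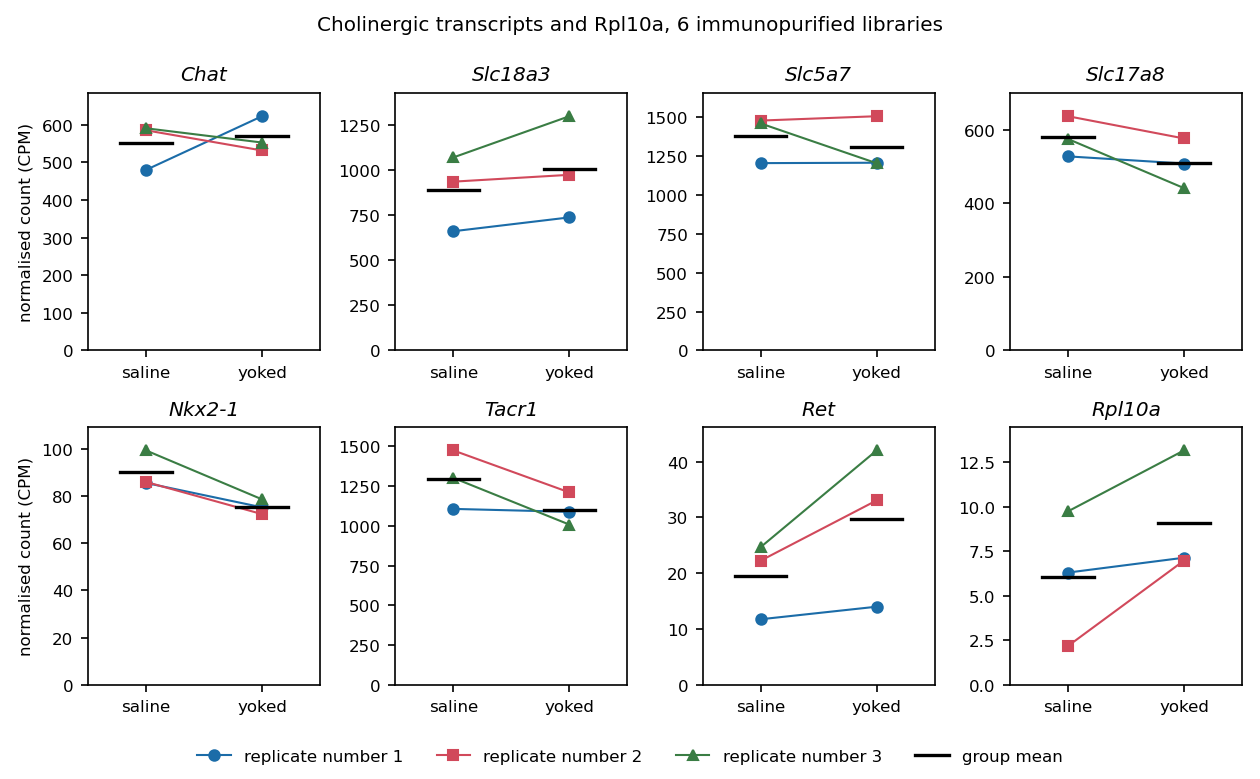
Normalised counts (CPM, linear axis from 0) of 8 transcripts in saline and yoked libraries. Points of one colour and shape share a replicate number and are joined; bars are group means over 3 libraries. Chat and Slc5a7 overlap between groups, Nkx2-1 is lower in each yoked library, and Ret and Rpl10a are higher in yoked within each number.

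Of the 15 cholinergic marker genes listed, 14 passed the filter on low counts, 8 with a positive and 6 with a negative log2 fold change. Their median was 0.04 (-0.03 without number 2), beside -0.01 over all genes tested, and 0 had an unadjusted p under 0.05 in edgeR's test. Summed over the list, the level ran from 5284 to 6956 CPM in saline and from 5474 to 6957 CPM in yoked libraries, against 155 CPM in the input. Rpl10a, which encodes the protein fused to the tag, was at 6.29, 2.17 and 9.73 CPM in saline and 7.13, 6.96 and 13.1 CPM in yoked libraries. The values were higher in yoked within each number and overlapped between groups (log2 fold change 0.75 ± 0.38, unadjusted p = 0.0834 in edgeR's test). The tag shares coding sequence with the native gene, and Rpl10a has processed copies elsewhere in the genome, so its count is uncertain as a measure of either.

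Among the transcription factors of the cholinergic lineage, 9 of 14 tested were higher and 5 lower (median 0.10), and 7 were higher without number 2 (median -0.004). Nkx2-1, the factor that specifies ventral forebrain interneurons and is kept in adult cholinergic cells, was at 85.7, 86.1 and 99.5 CPM in saline and at 75.3, 72.5 and 78.7 CPM in yoked libraries. All yoked values lay below all saline values, and the log2 fold change of -0.26 ± 0.11 had an unadjusted p of 0.0473 in edgeR's test, so it did not pass adjustment. Slc17a8, the vesicular glutamate transporter of these neurons, was at 528, 637 and 575 CPM in saline and 508, 576 and 441 CPM in yoked libraries, lower within each number (-0.19 ± 0.09). Slc32a1, the vesicular GABA transporter of inhibitory neurons, was by contrast at 7.39, 4.53 and 7.35 CPM in saline and 14.3, 12.3 and 12.3 CPM in yoked libraries. Its groups did not overlap and its log2 fold change was 1.04 ± 0.29 (unadjusted p = 0.00594, edgeR), for a transcript whose log2 ratio to the input was -2.80.

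The 10 genes of smallest p with a higher level in yoked libraries were Tnrc18, Rasl10b, Dgkk, Cacna1h, Peg10, Ipcef1, AK140265, Mllt6, Nos1 and Fam222a. Each was higher in yoked within all 3 numbers and had at least 5 CPM on average, both of which the rule for naming required, and none passed adjustment (adjusted p = 0.933 in edgeR's test for each). Tnrc18 (chromosome 5, 142724602 to 142823668), which encodes a large chromatin-associated protein, was at 34.1, 28.8 and 40.8 CPM in saline and 47.1, 61.8 and 112 CPM in yoked libraries. Every yoked library was above every saline library, with means of 34.5 ± 6.03 and 73.7 ± 34.1 CPM (SD, n = 3), and the highest value was in yoked library 3. The log2 fold change was 1.01 ± 0.19 (95% interval 0.58 to 1.45). It was 1.09 without the block and 0.97 without number 2. Rasl10b (chromosome 11, 83409137 to 83421039), a small GTPase of the Ras family, was at 104, 93.0 and 126 CPM in saline and 131, 149 and 198 CPM in yoked libraries, also without overlap (0.55 ± 0.11).

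Dgkk, a diacylglycerol kinase that converts diacylglycerol to phosphatidic acid, differed more between numbers than between groups. It had 27.6, 109 and 145 CPM in saline and 45.2, 136 and 272 CPM in yoked libraries, lowest in both libraries numbered 1. Within numbers yoked exceeded saline by 0.71, 0.32 and 0.91 on the log2 scale (0.65 ± 0.13, unadjusted p = 0.000848 in edgeR's test). Without the block the unadjusted p was 0.474 in edgeR's test, and the groups overlapped. Mllt6, which encodes a partner of the histone methyltransferase Dot1l, was at 82.3, 85.0 and 93.6 CPM in saline and 104, 114 and 145 CPM in yoked libraries, without overlap (0.46 ± 0.11). Fam222a was at 25.0, 24.4 and 24.9 CPM and then 37.4, 45.6 and 35.9 CPM, without overlap (0.67 ± 0.17).

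**Figure D2:**
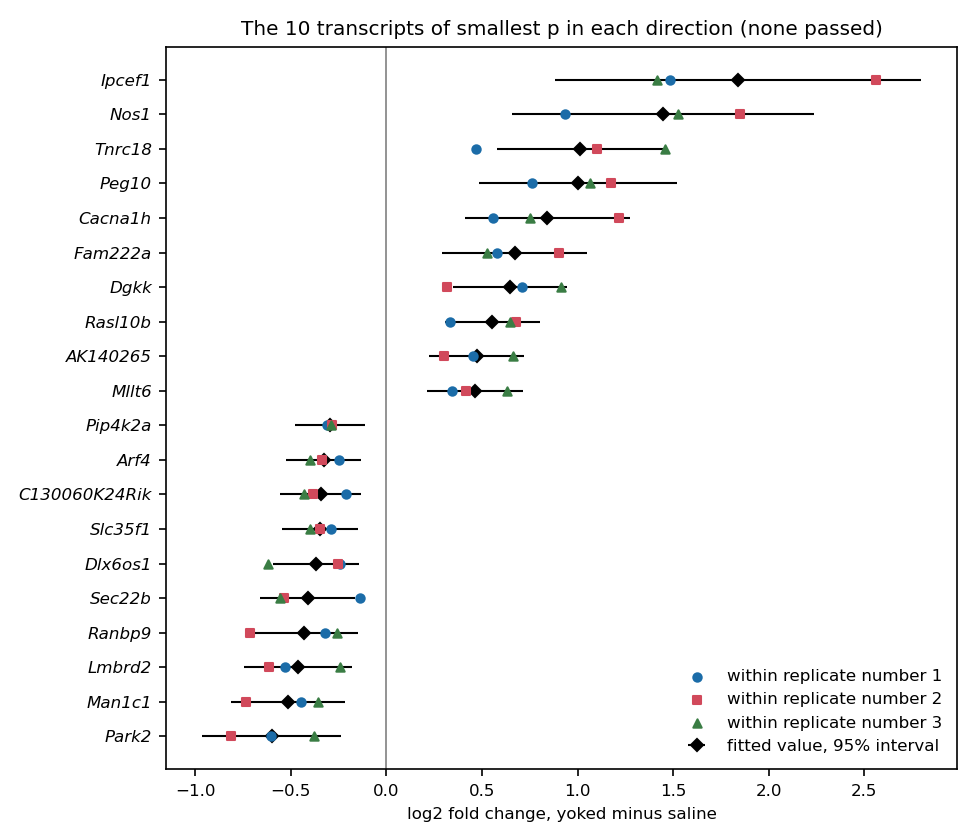
Log2 fold change of yoked minus saline for the 10 genes of smallest unadjusted p in each direction. Diamonds with lines are fitted values with 95% intervals, and coloured symbols are the differences within replicate numbers 1 to 3. Each gene lies on 1 side of 0 in all 3 numbers, which the rule for naming required, and none passed adjustment.

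Peg10, an imprinted gene derived from a retrotransposon, was at 14.9, 6.57 and 10 CPM in saline and 25.4, 14.9 and 21.0 CPM in yoked libraries. Yoked library 2 (14.89 CPM) lay just below saline library 1 (14.94 CPM), so the groups overlapped (1.002 ± 0.23). Ipcef1, which encodes an interactor of cytohesin exchange factors, was at 2.99, 1.74 and 2.08 CPM in saline and 8.47, 10.5 and 5.64 CPM in yoked libraries, without overlap (1.84 ± 0.42). Nos1, the neuronal nitric oxide synthase that marks another class of striatal interneuron, was at 4.25, 1.27 and 6.27 CPM in saline and 8.15, 4.74 and 18.2 CPM in yoked libraries, higher within each number and overlapping between groups (1.45 ± 0.35). Immunopurified levels of these 3 transcripts were below the input, with log2 ratios of -1.94 (Peg10), -4.12 (Ipcef1) and -0.80 (Nos1). AK140265 lay further below it, at 31487 CPM in the input against 64.6 to 131 CPM in saline and 88.4 to 208 CPM in yoked libraries (0.47 ± 0.11).

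The 10 genes of smallest p with a lower level in yoked libraries were Slc35f1, Man1c1, Arf4, Park2, Sec22b, Dlx6os1, Lmbrd2, C130060K24Rik, Pip4k2a and Ranbp9, again with an adjusted p of 0.933 in edgeR's test for each. Their fitted differences ran from -0.29 (Pip4k2a) to -0.60 (Park2), and those of the higher genes from 0.46 (Mllt6) to 1.84 (Ipcef1), so the sizes overlapped. Slc35f1, a member of a family of solute carriers, was at 255, 319 and 240 CPM in saline and 209, 251 and 182 CPM in yoked libraries. It was lower in yoked within each number by a like amount (-0.29, -0.35 and -0.40), while the groups overlapped through yoked library 2 (-0.35 ± 0.09). Man1c1, a Golgi mannosidase that trims N-glycans, was at 63.6, 96.3 and 69.2 CPM in saline and 46.6, 57.9 and 54.0 CPM in yoked libraries, without overlap (-0.51 ± 0.13). Arf4 (chromosome 14, 26638134 to 26656842), a small GTPase of Golgi traffic, was at 339, 306 and 298 CPM and then at 286, 242 and 226 CPM, without overlap (-0.33 ± 0.09).

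Sec22b, a SNARE protein of traffic between the endoplasmic reticulum and the Golgi, was at 218, 272 and 211 CPM in saline and 198, 187 and 143 CPM in yoked libraries, without overlap (-0.41 ± 0.11). Park2, which encodes the ubiquitin ligase parkin, was at 40.5, 67.1 and 32.0 CPM in saline and 26.6, 38.1 and 24.6 CPM in yoked libraries. Yoked library 2 lay above saline library 3, so the groups overlapped (-0.60 ± 0.16). Dlx6os1, a noncoding transcript antisense to Dlx6, was at 500, 483 and 431 CPM and then at 423, 405 and 281 CPM, without overlap (-0.37 ± 0.10), and reads of the sense gene cannot be told apart from it because no strand setting is given. Pip4k2a, a phosphoinositide kinase, differed by -0.31, -0.29 and -0.29 on the log2 scale within numbers 1 to 3 and overlapped between groups (371, 457 and 331 CPM against 299, 375 and 271 CPM). Ranbp9, a scaffold protein, was at 105, 129 and 104 CPM against 84.0, 78.8 and 87.3 CPM, without overlap. Lmbrd2 was also without overlap, at 84.7, 112 and 75.5 CPM against 58.6, 73.3 and 63.7 CPM.

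Ion channels set the pacing of these neurons. Of the 25 sodium and calcium channel genes, 9 were higher and 16 lower (median -0.07), but 14 were higher without number 2 (median 0.02). At an unadjusted p under 0.05 in edgeR's test, 3 were higher and 0 lower, where 1.94% and 1.66% of all genes were so. Those 3 encode the pores of the T-type calcium channels, which open near rest and carry rebound and pacemaking currents. Cacna1h (chromosome 17, 25374285 to 25436334) was at 17.9, 19.9 and 24.9 CPM in saline and 26.4, 46.3 and 41.9 CPM in yoked libraries, and the groups did not overlap. Cacna1i was at 29.6, 33.2 and 37.1 CPM in saline and 42.3, 48.1 and 43.7 CPM in yoked libraries. Cacna1g, which the rule did not name and which was added after its values were seen, was at 12, 14.9 and 15.9 CPM in saline and 20.1, 25.0 and 18.6 CPM in yoked libraries. For all 3 the yoked libraries lay above every saline library, as for 4.04% of all genes. The log2 fold changes were 0.84 ± 0.19 (Cacna1h), 0.43 ± 0.15 (Cacna1i) and 0.57 ± 0.22 (Cacna1g), with unadjusted p values of 0.00178, 0.0214 and 0.0311 in edgeR's test (adjusted p = 0.933 for all 3). Leaving out number 2 gave 0.66, 0.38 and 0.48. Cacna1h and Cacna1i were below the input (-0.42 and -0.68 on the log2 scale) and Cacna1g above it (0.74).

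**Figure D3:**
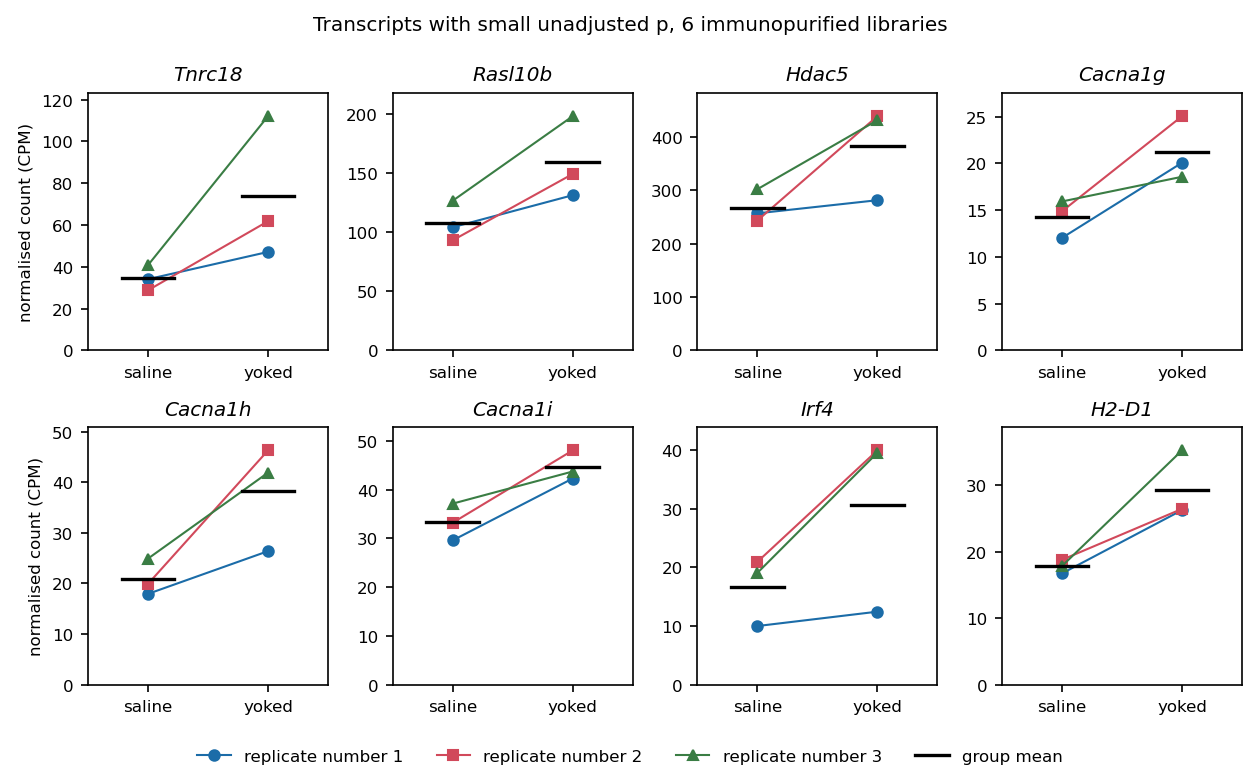
Normalised counts (CPM, linear axis from 0) of 8 transcripts with a small unadjusted p in saline and yoked libraries. Points of one colour and shape share a replicate number and are joined; bars are group means over 3 libraries. All 8 are higher in yoked within each number, and Tnrc18, Rasl10b, H2-D1 and the 3 T-type channels do not overlap between groups.

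Of 42 pacemaker and potassium channel genes, 23 were higher and 19 lower (median 0.02). Kcnd3, a pore of the A-type current, was at 122, 153 and 113 CPM in saline and 94.8, 127 and 93.8 CPM in yoked libraries. It was lower within each number and overlapped between groups (-0.30 ± 0.10). Kcnb2, a delayed rectifier, was at 31.1, 43.5 and 42.9 CPM in saline and 25.0, 17.1 and 35.0 CPM in yoked libraries, with the widest gap in number 2: the fitted value was -0.64 ± 0.23 and -0.30 without that number.

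The medians of the receptor lists ran from -0.16 to 0.12, while single members lay far to either side. Of 20 opioid and neuropeptide receptor genes tested, 7 were higher and 13 lower (median -0.16, members from -1.59 to 1.40). Tacr1, the substance P receptor that these neurons carry at high level, was at 1106, 1475 and 1302 CPM in saline and 1088, 1210 and 1008 CPM in yoked libraries. The log2 differences were -0.02, -0.28 and -0.37 within numbers 1 to 3, with overlapping groups (-0.23 ± 0.09, unadjusted p = 0.031 in edgeR's test). Dopamine and acetylcholine receptor genes divided evenly, 7 higher and 7 lower, with a median of 0.07 and members up to 2.47. Drd3, the D3 dopamine receptor, was at 1.1, 0.093 and 0.809 CPM in saline and 1.37, 1.64 and 2.13 CPM in yoked libraries, without overlap, but on 3 to 73 counts (1.76 ± 1.04). Drd1, the dopamine receptor of one class of spiny projection neuron, was at 52.6, 18.6 and 24 CPM in saline and 33.9, 29.7 and 48.9 CPM in yoked libraries. It was lower in yoked within number 1 and higher within numbers 2 and 3. Glutamate receptor genes were higher in 17 of 25 (median 0.12). GABA receptor genes were higher in 7 of 15 (median -0.04, members from -0.28 to 1.36). Serotonin and adrenergic receptor genes were higher in 8 of 15 (median 0.06, members from -0.40 to 3.30).

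Of 34 genes of synaptic vesicle release, 14 were higher and 20 lower (median -0.01), but 22 were higher without number 2 (median 0.05). Unc13c, a priming factor, was at 48.1, 10.7 and 41.9 CPM in saline and 46.6, 37.7 and 65.3 CPM in yoked libraries, with saline library 2 far below the others (0.78 ± 0.30, and 0.30 without number 2). In the neurotrophin and GDNF list, 6 of 13 tested genes were higher, and 8 without number 2. Ret, the signalling receptor for the growth factor GDNF, was at 11.7, 22.2 and 24.6 CPM in saline and 14, 33 and 42.0 CPM in yoked libraries. It was higher in yoked within each number and lowest in both libraries numbered 1, so the groups overlapped (0.53 ± 0.19). Gdnf itself was at 54.1, 51.3 and 52.8 CPM in saline and 61.2, 75.0 and 54.3 CPM in yoked libraries, without overlap (0.26 ± 0.14, unadjusted p = 0.11 in edgeR's test). Semaphorin, plexin and neuropilin genes were higher in 17 of 28, and Sema6d, an axon guidance ligand, was at 15.3, 8.90 and 17.3 CPM against 18.5, 35.8 and 30.8 CPM, without overlap (1.03 ± 0.32, and 0.56 without number 2).

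Immediate early genes are switched on within minutes by neuronal activity. Of 23 such genes tested, 18 were higher and 5 lower in yoked libraries (median 0.33), where 49.2% of all genes tested were higher. The list's median difference was -0.30 within number 1, 0.57 within number 2 and 0.52 within number 3, and it was 0.85, 0.14 and 0.20 when numbers 1, 2 and 3 were left out in turn, so its size turned on the libraries used. Its summed level was 439, 285 and 220 CPM in saline and 346, 367 and 335 CPM in yoked libraries, with the highest value in saline library 1. Fosb, a subunit of the AP-1 factor that builds up with repeated stimulation, was at 1.45, 0.527 and 0.956 CPM in saline and 2.94, 5.85 and 2.91 CPM in yoked libraries. The groups did not overlap, at a low level (37, 17 and 39 counts against 157, 189 and 78 counts), and the log2 fold change was 1.99 ± 0.70 (unadjusted p = 0.0199 in edgeR's test). The log2 ratio of Fosb to the input was -2.87.

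Circadian clock genes were higher in 13 of 21 (median 0.05). Per1, a clock gene that also responds to activity and glucocorticoid, was at 23.9, 17.5 and 20.7 CPM in saline and 31.6, 23.6 and 29.8 CPM in yoked libraries, higher within each number with overlapping groups (0.45 ± 0.18). Glucocorticoid response genes were higher in 9 of 14 (median 0.19). Genes of the endoplasmic reticulum stress response were higher in 10 of 27 and lower in 17 (median -0.06), but 16 were higher without number 2 (median 0.06). Ern1, the stress sensor kinase of that compartment, was at 1.81, 2.42 and 3.31 CPM in saline and 3.63, 7.96 and 4.63 CPM in yoked libraries, without overlap (1.07 ± 0.46). Sel1l, which takes part in degrading misfolded proteins there, was at 122, 200 and 137 CPM against 103, 133 and 120 CPM, lower within each number with overlapping groups (-0.34 ± 0.11). Sod1, the cytosolic superoxide dismutase, was at 875, 1078 and 855 CPM in saline and 861, 822 and 711 CPM in yoked libraries (-0.23 ± 0.09), in a list of 17 oxidative stress genes of which 8 were higher.

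Chromatin genes were higher in 23 of 39 (median 0.08), and 5 of them did not overlap between groups with yoked above, where 4.04% of all genes did so. Hdac5, a class IIa histone deacetylase that shuttles in and out of the nucleus with activity, was at 257, 243 and 302 CPM in saline and 281, 439 and 431 CPM in yoked libraries. Only yoked library 1 lay within the saline range (0.50 ± 0.13, unadjusted p = 0.00406 in edgeR's test). Kmt2d, a histone H3 lysine methyltransferase, was at 99.7, 100.2 and 98.8 CPM in saline and 125, 127 and 129 CPM in yoked libraries, without overlap (0.35 ± 0.10). Noncoding RNAs that stay in the nucleus were higher in 8 of 10 (median 0.33), with differences of -0.08, 0.74 and 0.63 within numbers 1 to 3, and the median was 0.60 without number 1 and 0.13 without number 3. Meg3 was at 134, 84.1 and 99.3 CPM in saline and 124, 159 and 206 CPM in yoked libraries. It was lower in yoked within number 1 and higher within numbers 2 and 3 (0.63 ± 0.20). Rian, from the same imprinted locus, was at 41.5, 37.4 and 27.8 CPM against 41.7, 54.2 and 44.2 CPM (0.40 ± 0.17). Both lay below the input, with log2 ratios of -3.67 and -2.36. The share of reads outside annotated genes was higher in the yoked library within each number, most within number 3 (15.23% to 21.71%), and its part in these values was not tested.

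Leaving out the libraries numbered 1 gave 7 called genes, all higher in yoked libraries: Tnrc18, Cdr1, Malat1, Meg3, Itpr1, Ccnd2 and 6330403A02Rik, with adjusted p values from 0.0029 to 0.0149 in edgeR's test. Their values are given because of that call. Malat1, an abundant nuclear RNA, was at 525, 490 and 363 CPM in saline and 421, 776 and 801 CPM in yoked libraries. Cdr1 was at 347, 815 and 690 CPM in saline and 272, 1428 and 1752 CPM in yoked libraries. Its locus also gives rise to a circular RNA antisense to it, which cannot be told apart because no strand setting is given. Itpr1, the calcium release channel of the endoplasmic reticulum, was at 274, 113 and 153 CPM in saline and 237, 203 and 312 CPM in yoked libraries. In all 3 the yoked library was below the saline library within number 1 and above it within numbers 2 and 3, and their unadjusted p values over all 6 libraries were 0.0534 (Malat1), 0.0503 (Cdr1) and 0.0261 (Itpr1) in edgeR's test. Ccnd2, a D-type cyclin, was level within number 1 (54.7 and 54.2 CPM) and higher in yoked within numbers 2 and 3 (80.6 to 141 and 55.0 to 144 CPM). The transcript 6330403A02Rik was at 63.1, 55.6 and 104 CPM in saline and 50.8, 120 and 205 CPM in yoked libraries. It too was lower in yoked within number 1 and higher within numbers 2 and 3.

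Genes of the translation and energy machinery differed by small amounts, with many members on one side. Cytosolic ribosomal protein genes were higher in 61 of 78 tested (median 0.12, and 0.06 without number 2), with medians of 0.10, 0.29 and 0.00 within numbers 1 to 3. Without the block and saline library 2, the list's median was -0.04. Rpl8 was at 125, 99.96 and 174 CPM in saline and 157, 133 and 195 CPM in yoked libraries (0.30 ± 0.10), and Rps21 at 75.0, 60.6 and 90.7 CPM against 88.9, 94.8 and 104 CPM (0.36 ± 0.13). Both overlapped between groups through saline library 3, and genes of this family have processed copies that can take or share reads. Nuclear genes of the respiratory chain were lower in 53 of 74 (median -0.05), 17 of them lower within all 3 numbers, where 13.7% of all genes were so. The list's medians were -0.05, 0.07 and -0.14 within numbers 1 to 3, so it leaned the other way within number 2. Its summed level ran from 16729 to 17217 CPM in saline and from 15728 to 17652 CPM in yoked libraries, highest in yoked library 2. Ndufc2, a subunit of complex I, was at 150, 213 and 163 CPM in saline and 142, 165 and 138 CPM in yoked libraries (-0.23 ± 0.10). Mitochondrial ribosomal protein genes were higher in 32 and lower in 44 of 76 (median -0.03). Proteasome genes were higher in 14 of 37 (median -0.06), and Psmb2 was at 179, 189 and 163 CPM against 162, 151 and 142 CPM, without overlap (-0.22 ± 0.09).

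Autophagy genes were lower in 16 of 24, genes of cholesterol synthesis in 15 of 22 and genes of phospholipid synthesis and flipping in 14 of 23, where 50.8% of all genes tested were lower. The medians were -0.09, -0.05 and -0.04. Msmo1, an enzyme of cholesterol synthesis, was at 40.9, 76 and 49.99 CPM in saline and 34.7, 54.7 and 36.8 CPM in yoked libraries, lower within each number (-0.38 ± 0.14). Tmem30a, the partner subunit of phospholipid flippases, was at 366, 491 and 411 CPM against 331, 442 and 324 CPM (-0.21 ± 0.09). Fyco1, an adaptor that links autophagosomes to kinesin, went the other way from its list, at 7.08, 5.61 and 6.05 CPM in saline and 8.21, 8.73 and 17.7 CPM in yoked libraries, without overlap (0.80 ± 0.34). Glycolysis genes were higher in 11 of 18 (median 0.05), and the neuronal glucose transporter Slc2a3 was at 134, 256 and 131 CPM against 129, 174 and 113 CPM (-0.27 ± 0.12, and -0.12 without number 2).

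Genes of the interferon response and MHC class I were higher in 13 of 22 (median 0.20, and -0.03 without number 2). H2-D1, a classical MHC class I chain, was at 16.7, 18.8 and 17.8 CPM in saline and 26.2, 26.4 and 35.2 CPM in yoked libraries. The groups did not overlap (0.71 ± 0.20, unadjusted p = 0.00575 in edgeR's test), although this gene has near-identical relatives that can share its reads. Irf4, an interferon regulatory factor, was at 9.99, 20.9 and 19.0 CPM in saline and 12.4, 39.9 and 39.5 CPM in yoked libraries. Its level was higher in yoked within each number and lowest in both libraries numbered 1 (0.77 ± 0.21). Irf4 had 8 counts in the input and lay 6.34 above it on the log2 scale.

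Transcripts of other striatal cells were present in all 6 libraries. The summed level of each such marker list was below the input in every library, except for ependyma and choroid plexus, which had 9.06, 1.85 and 93.6 CPM in saline and 23.1, 4.81 and 6.55 CPM in yoked libraries against 18.6 CPM in the input. These sums are levels in pulled-down RNA. The number of cells of a type, their RNA content and the amount of untagged RNA carried along cannot be told apart in such samples. Among general markers of spiny projection neurons, 15 of 16 were higher (median 0.21), with differences of -0.25, 0.29 and 0.81 within numbers 1 to 3, and the median was 0.50 without number 1 and -0.01 without number 3. Their summed level was 3643, 2323 and 2101 CPM in saline and 3055, 2791 and 3066 CPM in yoked libraries, the highest being saline library 1, against 15948 CPM in the input. Gng7, a G protein subunit of these neurons, was at 216, 119 and 155 CPM in saline and 242, 172 and 292 CPM in yoked libraries, with overlap (0.54 ± 0.14). Actn2 was at 5.27, 0.372 and 2.55 CPM against 6.56, 5.54 and 8.33 CPM, without overlap (1.85 ± 0.67).

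Oligodendrocyte markers were higher in 11 of 12 (median 0.48), with differences of 0.10, 0.61 and 0.87 within numbers 1 to 3. Their summed level was 588, 269 and 291 CPM in saline and 564, 362 and 488 CPM in yoked libraries, against 3346 CPM in the input. Mobp, a myelin protein, was at 38.2, 15.6 and 22.2 CPM in saline and 42.5, 22.4 and 49.98 CPM in yoked libraries, higher within each number with overlap (0.62 ± 0.22). Oligodendrocyte precursor markers were higher in 7 of 7 (median 0.44), but their median was 0.05 without number 3 and, without the block, 1.39 without saline library 1 and -0.09 without saline library 2. Markers of other striatal interneurons were higher in 8 of 11 (median 0.65), with 0.32 without number 1 and 0.17 among genes of at least 5 CPM. Astrocyte markers divided 8 to 6 (median 0.01), with -0.08, -0.41 and 0.40 within numbers 1 to 3. Without number 2, 11 of the 14 astrocyte markers were higher (median 0.16). Microglia markers divided 5 to 6 (median -0.08), with -0.63, 0.14 and 0.54 within numbers 1 to 3 and 0.91 when number 1 was left out. Endothelial and mural markers were higher in 7 of 8 tested (median 0.93), a value that came from number 2 (2.56 within it, and 0.15 without it). For each of these cell types, 0 listed markers were at 0 in all 6 libraries.

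**Figure D4:**
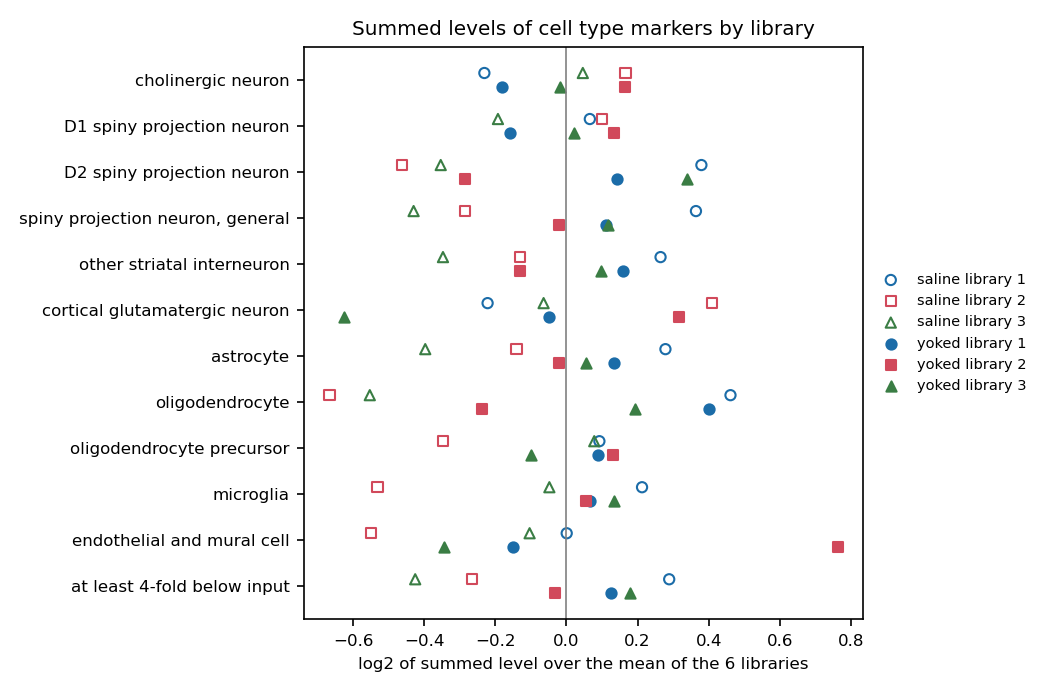
Summed CPM of marker lists in each library as log2 of the level over the mean of the 6 libraries, with open symbols for saline, filled for yoked, and shape and colour for replicate number. Saline library 1 is highest in general and D2 spiny projection neuron, other interneuron, astrocyte, oligodendrocyte and microglia markers, but not in D1 spiny projection neuron markers. It is also highest in the class at least 4-fold below the input. The cholinergic sums of the 2 groups overlap.

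Transcripts were also sorted by their ratio to the input, in classes that share genes with the marker lists. Not every list far below the input was higher in yoked libraries. Cortical glutamatergic markers, with a median log2 ratio to the input of -4.07, were lower in 6 of 7 tested (median -0.14). Their differences were -0.11, 0.20 and -1.22 within numbers 1 to 3. Among the 1210 tested genes at least 4-fold below the input in the mean of the 6 libraries, 68.5% were higher in yoked libraries, with a median of 0.28 and differences of -0.11, 0.22 and 0.67 within numbers 1 to 3. The median was 0.48 without number 1 and 0.08 without number 3. At an unadjusted p under 0.05 in edgeR's test, 68 of them were higher and 1 lower, where 1.94% and 1.66% of all 14427 genes were so. Summed over all 2418 genes of the class, tested or not, the level was 21512, 14656 and 13112 CPM in saline libraries 1 to 3. In yoked libraries the sums were 19197, 17212 and 19945 CPM, so saline library 1 had the highest sum. The median was 0.08 for 1649 genes from 2 to 4-fold below the input, -0.02 for 8468 genes within 2-fold, -0.03 for 2041 genes from 2 to 4-fold above and -0.05 for 790 genes at least 4-fold above, of which 42% were higher. The 1210 genes at least 4-fold below the input therefore held 68 of the 280 genes that were higher at an unadjusted p under 0.05. The 1649 genes from 2 to 4-fold below held 58, with 20 lower, and the 8468 within 2-fold held 121, with 152 lower. Genes named above for a higher level that lie in that class are Ipcef1, AK140265, Slc32a1, Sema6d, Fosb, Fyco1, Meg3, Rian, Malat1, Gng7, Actn2 and Mobp. The within-number differences of this class followed the order of the differences in reads outside annotated genes (14.13% to 15.4%, 14.76% to 17.65% and 15.23% to 21.71% for numbers 1 to 3), and whether the one bears on the other was not tested.

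**Figure D5:**
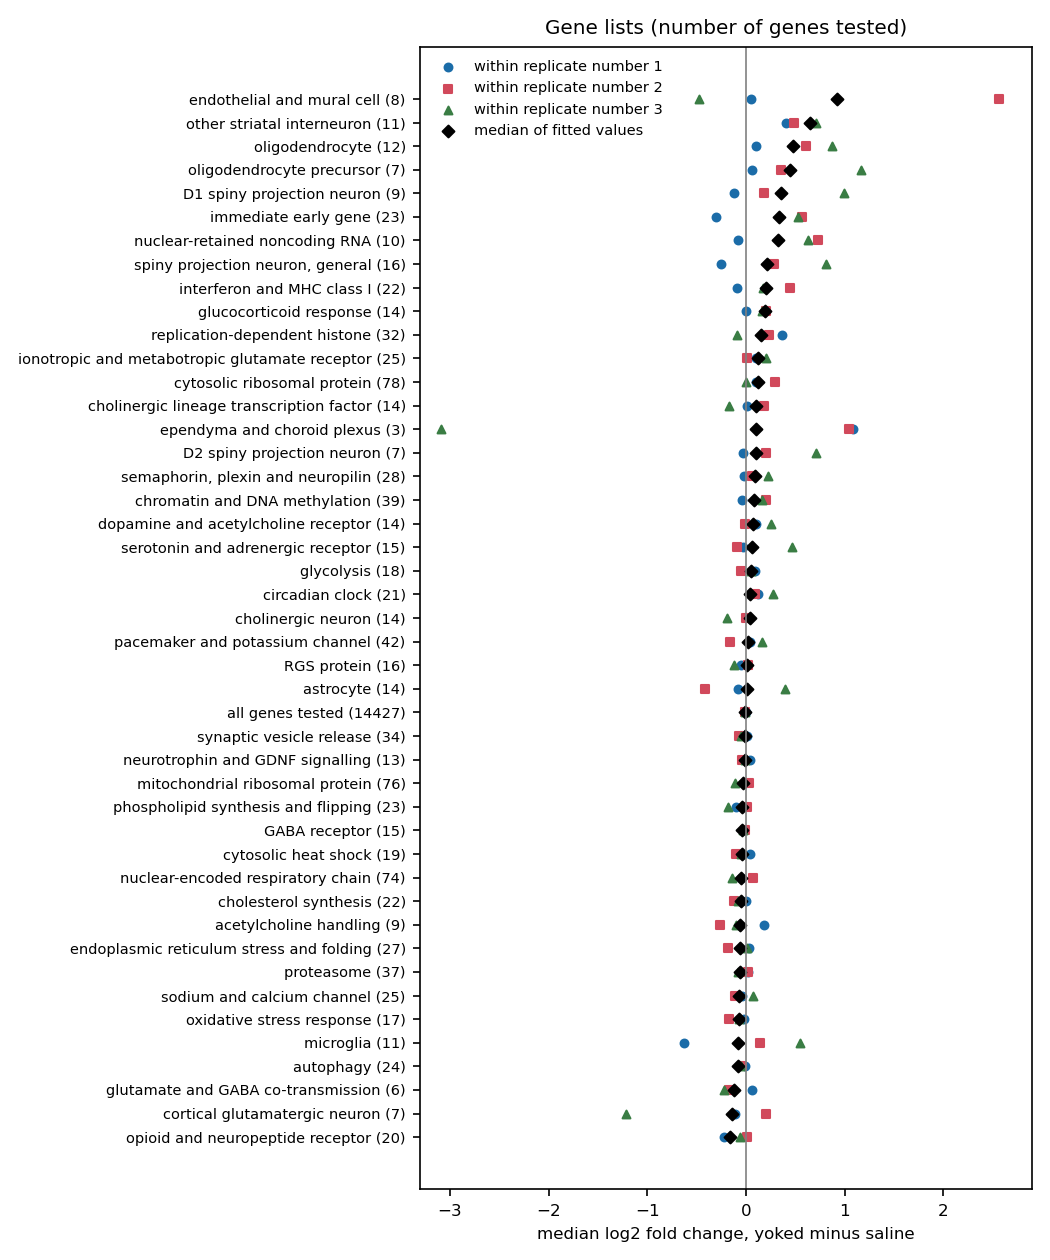
Median log2 fold change (yoked minus saline) of each gene list with at least 3 genes tested, the number tested in brackets. Diamonds are medians of fitted values and coloured symbols are medians within replicate numbers 1 to 3. Lists right of 0 in all 3 numbers include markers of oligodendrocytes, their precursors and other interneurons. They also include the circadian clock, glutamate receptor and glucocorticoid response lists. GABA receptor, oxidative stress and autophagy lists are among those left of 0 in all 3. Most function lists lie near the median of all genes, -0.01.

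Both libraries numbered 2 were also left out. The rule for naming required 1 sign within every number, so the direction of the 20 genes of smallest p could not turn in that fit and is no sign of stability, and only the sizes are informative. The log2 fold changes were then 0.97 (Tnrc18), 0.50 (Rasl10b), 0.82 (Dgkk), 0.66 (Cacna1h), 0.92 (Peg10), 1.47 (Ipcef1) and 1.25 (Nos1) among the higher genes, and -0.34 (Slc35f1), -0.40 (Man1c1), -0.32 (Arf4), -0.49 (Park2) and -0.34 (Sec22b) among the lower. The median of the genes at least 4-fold below the input was 0.29 without number 2 and that of the oligodendrocyte list 0.38. The 4 libraries left gave 760 genes at an unadjusted p under 0.05 in edgeR's test, 435 higher and 325 lower.

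Cocaine and yoked libraries shared the saline libraries as controls and were both on lane 4, so their differences from saline are given side by side and are not independent. In 1 fit of all 9 immunopurified libraries, Tnrc18 was 0.99 above saline in yoked and 0.74 in cocaine libraries on the log2 scale, Rasl10b 0.54 and 0.41, Cacna1h 0.83 and 0.52, Ipcef1 1.81 and 1.47, and Nos1 1.44 and 1.1. These genes thus had fitted values above 0 in both. Dgkk was 0.66 in yoked and 0.06 in cocaine, Sema6d 1.11 and 0.21, Cacna1i 0.43 and -0.03, Nkx2-1 -0.27 and 0.18, Man1c1 -0.51 and -0.08, and Pip4k2a -0.30 and 0.05. Slc2a3 (-0.30 and -0.65), Tmem30a (-0.22 and -0.63) and Msmo1 (-0.40 and -0.87) were further from saline in cocaine than in yoked libraries. The difference between cocaine and yoked libraries was not tested for these genes.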

How the data were processed

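For each library the authors deposited raw, unnormalised counts by gene symbol. The submitters' processing notes name STAR 2.0.0e, HTSeq without a version, and mm10 as the build; the annotation, strand setting and read filters are not given in the sources used here. Unassigned reads stayed out of library sizes and tests.

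Of 32531 listed symbols, 21950 had a count in the 6 libraries and 14427 passed edgeR's filter (minimum count 10, minimum total 15). Yoked and saline were tested in edgeR 4.0.16 under R 4.3.3 (robust quasi-likelihood F-test, TMM scaling), replicate number as a block and Benjamini-Hochberg adjustment, with 2 residual degrees of freedom. Values per library are CPM on those TMM-scaled library sizes; summed list levels are unscaled CPM. Alternatives used DESeq2 1.42.0 and limma 3.58.1. Deviations from the group mean correlated at 0.164, 0.167 and 0.12 between same-numbered libraries and at -0.16 to 0.0651 between others. These values are weak, and deviations cancel within a group, so positive values for same-numbered libraries push the others down. The contrast is therefore partly built in. The numbers, which also share an index in the labels, were taken as pairing the libraries.

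Coordinates come from the RefSeq gene table of GRCm38.p6, which matched 22961 symbols. Named genes are Chat, Slc18a3, Slc5a7 and Rpl10a, the 10 of smallest p in each direction with at least 5 CPM and 1 sign within all numbers, and up to 2 of each list; Cacna1g, the genes called only without number 1 or 2, Gpr101, Plcd3, Xrcc1 and Tmem145 were chosen after their values were seen. Members and lists were chosen with earlier results of these data known. Ratios to input used genes with at least 20 counts in the input or the mean library and an offset of 0.1 CPM. The input has no replicate.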

Additional observations from a re-analysis of the deposited data

How the results depend on the processing

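The count of called genes was 0 with the replicate block and 0 without it, and leaving libraries out gave from 0 to 7. It was 3 with no filter on low counts (AK045299, Dgkk and Tnrc18), 2 with DESeq2, 7 without number 1, 1 without number 2, and 7 without number 1 when the filter was reapplied. The oligodendrocyte median ranged from 0.219 to 0.894 over the fits that left libraries out, with 0.894 without the block and saline replicate 1. The immediate early gene median ranged from 0.0491 to 0.851, reaching its highest value without number 1 (0.850 with the filter reapplied). The log2 fold changes that turned sign when libraries were left out ranged from -0.113 to 0.145 for Chat (-0.112 without number 1), -0.0552 to 0.354 for Slc18a3, -0.196 to 0.0227 for Slc5a7 (0.0224 without number 3 before the filter was reapplied), -0.0528 to 1.14 for Dgkk, -0.0278 to 0.857 for Drd1 and -0.515 to 0.0702 for Slc2a3. Of 71 genes named, 65 kept their sign under all 22 alternatives. Most of them were named for a small p or after their values were seen in these same libraries, so this count is no sign of stability. Scalings by RLE size factors or total counts moved the median of all genes by less than 0.1. The cause of these changes was not tested. Over genes of at least 5 CPM, the median half-width of an unadjusted 95% interval was 1.33-fold. It describes the precision of a typical gene and is no detection limit.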

Other observations

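Some transcripts of low level, chosen after their values were seen except for Aif1, had groups that did not overlap, as 4.04% of all genes did with yoked above. Gpr101, an orphan G protein-coupled receptor, was at 0.432, 0.31 and 0.662 CPM in saline and 4.83, 5.26 and 1.91 CPM in yoked libraries, from 11, 10 and 27 counts against 258, 170 and 51 (log2 fold change 3.01 ± 0.76). Plcd3, a phospholipase C, was at 1.02, 2.17 and 2.43 CPM against 3.98, 10.4 and 5.08 CPM (1.76 ± 0.46). Xrcc1, a DNA single-strand break repair scaffold, was at 2.48, 2.42 and 4.07 CPM against 7.05, 5.85 and 7.02 CPM (1.19 ± 0.40). Tmem145 was at 1.45, 2.05 and 4.53 CPM against 7.05, 7.68 and 6.80 CPM (1.58 ± 0.47). Aif1, a microglial marker, was at 1.45, 0.899 and 1.35 CPM against 5.70, 4.40 and 5.42 CPM (2.08 ± 0.50), while 6 of the 11 microglia markers tested had a negative difference. None of these 5 passed adjustment in edgeR's test.

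AK155692, the gene called without number 2, was at 85.3, 40.8 and 117 CPM in saline and 162, 24.6 and 226 CPM in yoked libraries. It was higher in yoked within numbers 1 and 3 and lower within number 2.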
